A study of Mus musculus with 9 samples.

Results

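The collagen genes of mouse tibia are described here across 9 RNA-seq libraries. The rule took every gene in the expression table whose symbol is Col, a number, a and a number, and 44 of the 18272 genes in the table met it. They were placed in 4 classes from textbook knowledge, with 5 in a bone class, 8 in a cartilage class, 8 in a basement membrane class and 23 in a remaining class called other. A total of 38 had at least 10 counts in at least 3 libraries and were tested, 5 bone, 6 cartilage, 7 basement membrane and 20 other genes. *Col4a6*, *Col6a4*, *Col6a5*, *Col9a3*, *Col10a1* and *Col17a1* stayed below this filter.

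RNA was taken from the tibia of female C57BL/6J mice, 1 library per mouse and 3 mice in each of 3 groups. NGT mice had normal glucose tolerance and were given vehicle in place of streptozotocin (STZ), which kills the beta cells of the pancreas, and then saline. T1D mice had received STZ once at 150 mg/kg and then saline, whereas Lira mice had received the same STZ injection and then liraglutide, a drug that activates the GLP-1 receptor, at 0.6 mg/kg/day for 8 weeks (the label of Lira mouse 3 says 9 weeks). Mice were 10 to 11 weeks old when bought, and treatment began 2 weeks after STZ. STZ diabetes is a chemical model in which beta cells are destroyed without autoimmunity. The comparison of T1D with NGT mice addresses collagen expression in diabetic bone, and that of Lira with T1D mice addresses the drug.

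Collagens are proteins of 3 chains wound into a triple helix. Type I collagen, from *Col1a1* and *Col1a2*, is the main protein of bone matrix and tendon, and small amounts of type V collagen are built into its fibrils. Cartilage fibrils are made of types II, IX and XI, and hypertrophic chondrocytes of the growth plate add type X. Type IV collagen forms the network of basement membranes around vessels, muscle fibers and nerves, with types XV and XVIII at its border. A tibia also holds marrow, vessels and nerve, and tendon and muscle attach to it, so its collagen transcripts can come from many cell types.

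The libraries held 13086373 to 16528394 counts. Levels are given as CPM, a depth-adjusted count that takes the tested genes alone as the library total, scaled by TMM, and levels of different genes are compared only as FPKM, which the authors scaled for transcript length. Where a gene had 0 counts, up to 3 could have been missed by counting error alone, which is 0.163 to 0.238 CPM on this scale. Of the 12 osteoblast and osteocyte markers, 8 were counted in all 9 libraries, and *Bglap*, *Sp7*, *Mepe* and *Sost* were at 0 in at least 1. Their summed level was 26.6 to 244 CPM in NGT, 196 to 764 in T1D and 51.6 to 361 in Lira mice. The bones had been cleaned of muscle and connective tissue. Even so, 19 skeletal muscle markers summed to between 109940 CPM in T1D mouse 1 and 301680 CPM in NGT mouse 3, that is, 11% to 30.2% of the tested genes' level. Fewer cells of a type and less RNA per cell cannot be told apart in such bulk samples.

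Bone collagens made up the largest share of collagen transcripts in most tibias. By FPKM, the 5 bone genes held 23.1% to 61.0% of the summed collagen level (median 50.1%), the 23 other genes 20.7% to 41.3%, the 8 basement membrane genes 4.75% to 34.6% and the 8 cartilage genes 1.02% to 5.72%. Mice of the same group differed widely. The bone share was 49.98%, 23.1% and 56.96% in NGT mice 1 to 3, 61.0%, 45.7% and 50.1% in T1D mice and 52.4%, 30.5% and 60.0% in Lira mice, so the groups overlapped. NGT mouse 2 and Lira mouse 2 had the lowest bone shares, and the same libraries had the highest basement membrane shares, 34.6% and 27.7%. The most abundant single gene by median FPKM was *Col1a1* at 63.0 (range 13.4 to 665), followed by *Col1a2* at 58.7 (16.1 to 443), *Col3a1* at 27.8 (11.3 to 340) and *Col4a1* at 26.7 (13.3 to 39.2). The ranges of these 4 genes overlapped, so their order was not the same in every library.

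**Figure D1:**
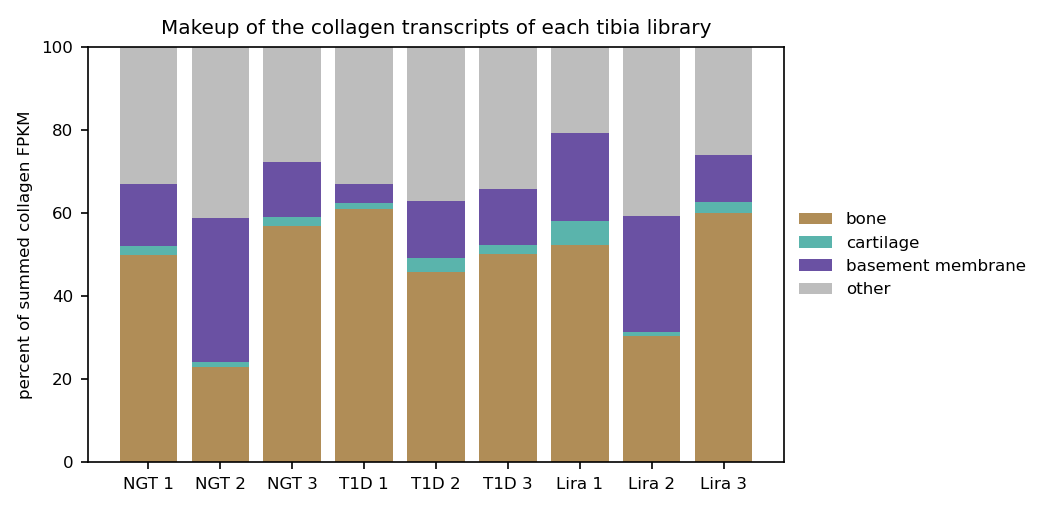
Percent of the summed collagen FPKM (vertical axis) held by each class in each library (horizontal axis, group and mouse number). Bone genes hold the largest part in 7 libraries, and other genes do in NGT mouse 2 and Lira mouse 2.

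All 44 genes together summed to 2748, 1032 and 2244 CPM in NGT mice 1 to 3, 8800, 1540 and 1327 CPM in T1D mice and 1570, 1479 and 1883 CPM in Lira mice. T1D mouse 1 therefore had 3.2 times the level of the next highest library, NGT mouse 1, while the other T1D mice lay within the range of the NGT mice. As a share of all deposited counts, collagen genes took 1.10% in T1D mouse 1 and between 0.0921% and 0.331% elsewhere. Of the 38 tested genes, 20 were highest of the 9 libraries in T1D mouse 1, against 20.7% of all tested genes. In 10 of them T1D mouse 1 exceeded every other library by more than 2 times, *Col1a1*, *Col1a2*, *Col3a1*, *Col5a1*, *Col5a2*, *Col6a1*, *Col6a2*, *Col6a3*, *Col14a1* and *Col18a1*, against 3.41% of all tested genes. NGT mouse 2 stood at the opposite end, with the lowest level of the 9 libraries for 15 of the 38 genes, against 15.1% of all tested genes. All 12 osteoblast, all 9 erythroid, all 10 neutrophil and 8 of 9 osteoclast markers were lower there than in both other NGT mice, with neutrophil markers summing to 4.02 CPM against 2334 and 431 CPM. So were 7 of 9 macrophage, 6 of 10 tendon and fibroblast, 4 of 9 chondrocyte and 1 of 10 endothelial markers, but 0 of the adipocyte, skeletal muscle, smooth muscle and Schwann cell markers. The part of these cell types in the collagen levels was not tested.

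**Figure D2:**
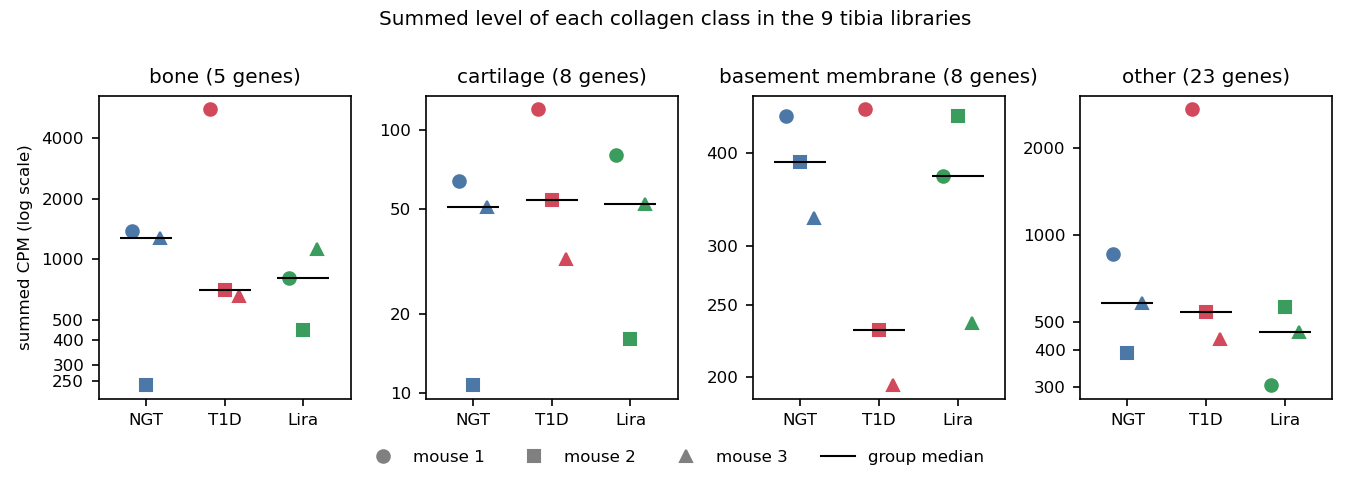
Summed CPM of each collagen class (vertical axis, log scale, with a different range in each panel) for the 3 mice of each group, with the group median as a line. T1D mouse 1 is highest in all 4 panels, by 4.0 times over the next library for bone and by only 1.02 times for basement membrane.

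Marker genes of several cell types followed the same library. In T1D mouse 1, 8 of 12 osteoblast markers, 5 of 9 chondrocyte, 6 of 10 tendon and fibroblast, all 8 adipocyte and 8 of 9 macrophage markers were at their highest of the 9 libraries. The macrophage list summed to 969 CPM there and to 41.9 to 136 CPM in the other libraries, and the skeletal muscle list was at its lowest. Tendon and fibroblast markers summed to 2147 CPM in T1D mouse 1 and to 609 to 1404 CPM elsewhere, and all 10 were counted in every library. Endothelial markers (371 to 627 CPM) and smooth muscle markers (440 to 724 CPM) were not raised in that library, at 399 and 482 CPM. The part of these cell types in the collagen levels was not tested.

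**Figure D3:**
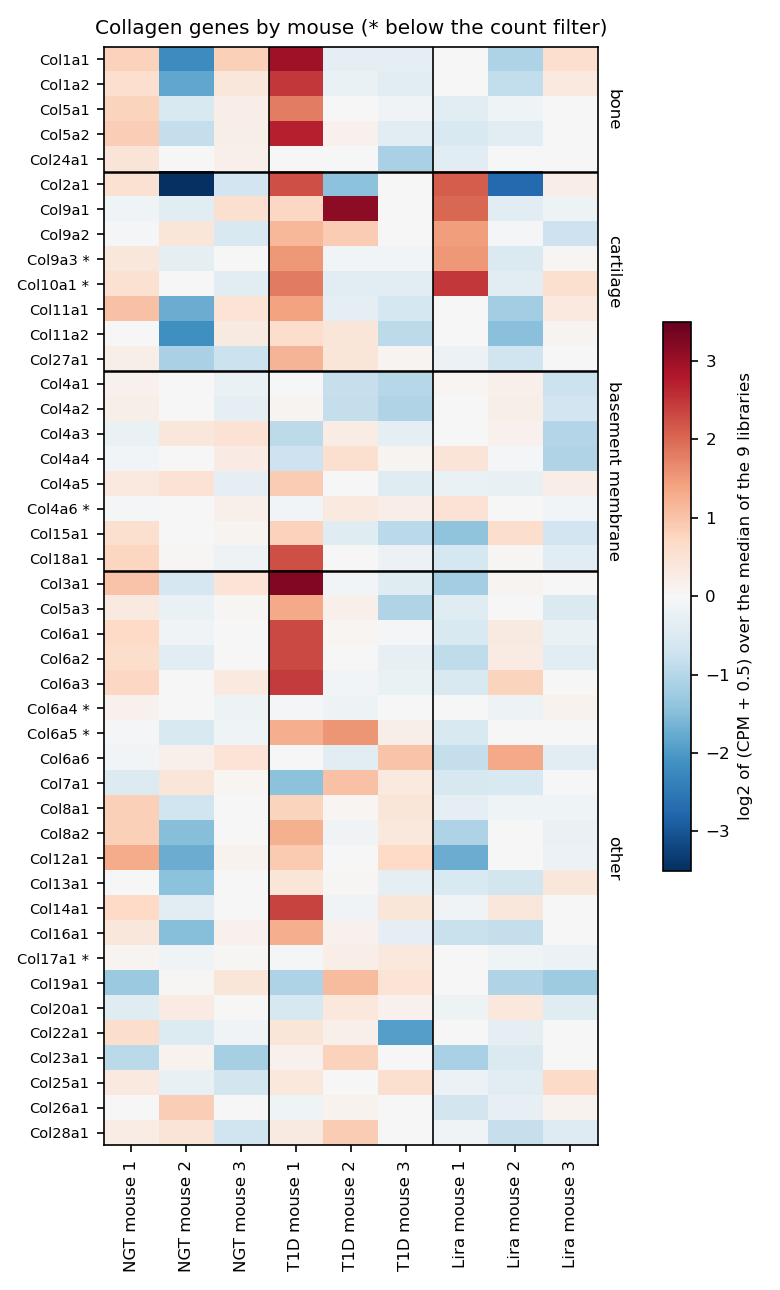
Each of the 44 collagen genes (rows, by class) in each library (columns), as the log2 of CPM + 0.5 over the gene's median of 9 libraries. T1D mouse 1 is red for most fibrillar genes and for type VI, whereas *Col4a1* to *Col4a4* stay near or below 0 there, and *Col2a1*, *Col9a2*, *Col9a3* and *Col10a1* are raised in both T1D mouse 1 and Lira mouse 1.

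To show the promoters of genes that were high together in T1D mouse 1, the 250 bases before the RefSeq transcript start of 3 of them are given 5′ to 3′ on the gene's strand: *Col1a2* (GRCm38.p6, chr6:4505368-4505617, plus strand), *Col3a1* (chr1:45311288-45311537, plus strand) and *Col6a1* (chr10:76726045-76726294, minus strand). Capitals mark matches to 3 motifs, each searched on both strands. The TATA box was searched as TATAAA. The other motifs were CCAAT for the box of that name, and for the GC box the letters GGGCGG. The submitters' processing notes list mm9, so the coordinates belong to the RefSeq table and not to the deposited counts.
Col1a2: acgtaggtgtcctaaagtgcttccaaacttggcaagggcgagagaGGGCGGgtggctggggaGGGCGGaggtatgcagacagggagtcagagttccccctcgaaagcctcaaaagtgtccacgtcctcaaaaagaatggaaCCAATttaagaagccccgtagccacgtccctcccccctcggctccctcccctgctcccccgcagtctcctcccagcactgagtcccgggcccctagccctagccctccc
Col3a1: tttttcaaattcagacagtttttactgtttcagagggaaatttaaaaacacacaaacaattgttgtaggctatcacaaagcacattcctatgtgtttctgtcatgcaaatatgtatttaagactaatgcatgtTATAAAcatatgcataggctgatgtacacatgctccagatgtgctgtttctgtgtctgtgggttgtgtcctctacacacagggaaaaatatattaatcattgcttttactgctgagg
Col6a1: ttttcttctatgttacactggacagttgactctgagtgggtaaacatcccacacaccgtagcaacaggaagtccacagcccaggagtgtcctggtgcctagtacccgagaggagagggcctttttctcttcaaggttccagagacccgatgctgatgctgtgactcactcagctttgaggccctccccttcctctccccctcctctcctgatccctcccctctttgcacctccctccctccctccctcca
*Col1a2* holds CCAAT starting 109 bases before the start and GGGCGG at 205 and 188 bases, *Col3a1* holds TATAAA at 117 bases, and *Col6a1* holds no match in this window. The 3 windows thus shared none of these motifs. Windows were given for 35 of the 44 collagen genes. TATAAA was found in 5 of them (14.3%) against 13% of all 27025 windows of the table, CCAAT in 12 (34.3%) against 34.5%, and GGGCGG in 21 (60.0%) against 32.9%. A match is a description of the letters and not a site of binding. Several collagen genes are neighbours among protein-coding genes in the RefSeq table, among them *Col3a1* and *Col5a2*, *Col6a2* and *Col6a1*, *Col4a1* and *Col4a2*, *Col4a4* and *Col4a3*, and *Col9a1* and *Col19a1*.

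In the bone class, T1D mice had higher fitted means than NGT mice for 4 of 5 genes, with T1D mouse 1 far above the rest. *Col1a1*, the alpha-1 chain of type I collagen, was counted at 719, 89.8 and 739 CPM in NGT mice 1 to 3, at 3208, 333 and 331 CPM in T1D mice and at 412, 193 and 618 CPM in Lira mice. *Col1a2*, the alpha-2 chain, was counted at 508, 94.9 and 442 CPM in NGT, 1880, 285 and 263 CPM in T1D and 338, 184 and 425 CPM in Lira mice. Both chains had the same extremes, T1D mouse 1 at the top and NGT mouse 2 at the bottom, and the remaining T1D mice lay inside the NGT range. *Col5a2*, a chain of type V collagen that helps to set fibril diameter, was counted at 75.8, 23.2 and 48.4 CPM in NGT, 281, 46.9 and 31.6 CPM in T1D and 28.7, 32.6 and 41.8 CPM in Lira mice. The fitted log2 fold change between T1D and NGT was 1.32 ± 1.04 (SE) for *Col1a1*, 1.22 ± 0.86 for *Col1a2* and 1.29 ± 0.78 for *Col5a2*, with an adjusted p of 0.977 for each (quasi-likelihood test of edgeR, Benjamini-Hochberg adjustment over 13960 genes). Without T1D mouse 1 the signs turned, to -0.64, -0.35 and -0.33. That fit kept NGT mouse 1, which has the same number. Taken by number, T1D was above NGT in pairs 1 and 2 and below it in pair 3 for all 3 genes, and the mean log2 difference of pairs 2 and 3 was 0.37, 0.42 and 0.20 (CPM + 0.5), so the sign without T1D mouse 1 differed between the fit and the pairs. Between Lira and T1D mice the log2 fold changes were -1.66 ± 1.05 for *Col1a1*, -1.36 ± 0.87 for *Col1a2* and -1.80 ± 0.79 for *Col5a2* (adjusted p = 0.978), and 0.30, 0.21 and -0.19 without T1D mouse 1. *Col24a1*, a minor fibrillar collagen, was the bone gene that did not follow, at 2.33 to 8.00 CPM over all libraries.

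Cartilage collagens were scarce and uneven. *Col2a1*, the chain of type II collagen, was counted at 11, 0.155 and 4.51 CPM in NGT, 37.4, 2.42 and 7.47 CPM in T1D and 34.4, 0.701 and 8.90 CPM in Lira mice. T1D mouse 1 and Lira mouse 1 were far above the other libraries, and NGT mouse 2 was under the level of 3 counts. *Col10a1*, the hypertrophic chondrocyte collagen, was counted at 1.79 CPM in T1D mouse 1 and 3.14 CPM in Lira mouse 1, at no more than 0.459 CPM in the other libraries, and at 0 in NGT mouse 3, T1D mice 2 and 3 and Lira mouse 2. *Col9a3*, a chain of type IX, was counted at 1.85 CPM in T1D mouse 1 and 1.86 CPM in Lira mouse 1 and at 0.0779 to 0.571 CPM elsewhere. The 9 chondrocyte markers in the table summed to 1569 CPM in T1D mouse 1, 697 CPM in Lira mouse 1 and 39.7 to 258 CPM elsewhere, while *Acan*, *Matn3*, *Cnmd* and *Epyc* were at 0 in at least 1 library. Their part in the cartilage collagen levels was not tested.

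*Col11a1* and *Col11a2*, chains of type XI collagen that nucleates cartilage fibrils and is also made in bone and tendon, did not share the high value in Lira mouse 1. *Col11a1* was counted at 25.1, 3.33 and 17.1 CPM in NGT, 32.9, 9.62 and 7.74 CPM in T1D and 12.1, 4.91 and 15.6 CPM in Lira mice. *Col11a2* was counted at 20.3, 4.18 and 25.6 CPM in NGT, 31.4, 27.7 and 10.5 CPM in T1D and 20.3, 7.01 and 21.9 CPM in Lira mice. Groups overlapped for both, and mouse 2 was lowest in NGT and in Lira. The log2 fold changes between T1D and NGT were 1.58 ± 1.5 for *Col2a1*, 0.14 ± 0.78 for *Col11a1* and 0.48 ± 0.68 for *Col11a2*, with adjusted p = 0.977, 0.992 and 0.984 in the quasi-likelihood test of edgeR with Benjamini-Hochberg adjustment. Without T1D mouse 1 they were -0.09, -0.81 and 0.19, but NGT mouse 1 stayed in that fit, and the mean log2 difference of same-numbered pairs 2 and 3 was 1.41, 0.15 and 0.68. *Col2a1* was higher in T1D in all 3 pairs, and the type XI genes in pairs 1 and 2. *Col9a1*, of type IX, was highest in another library, T1D mouse 2, at 6.15 CPM, 2.40 times the next.

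*Col27a1*, a fibrillar collagen of cartilage, was the collagen with the lowest p between T1D and NGT mice. It was counted at 6.09, 2.09 and 2.93 CPM in NGT, 12.6, 7.20 and 5.67 CPM in T1D and 4.42, 3.04 and 5.22 CPM in Lira mice. T1D mouse 3 lay below NGT mouse 1, so NGT and T1D overlapped, whereas every T1D mouse was above every Lira mouse. The log2 fold change between T1D and NGT was 1.19 ± 0.47, with an unadjusted p of 0.034 and an adjusted p of 0.977 (quasi-likelihood test of edgeR, Benjamini-Hochberg adjustment). It was 0.79 without T1D mouse 1 and 1.26 with the replicate number as a block. Between Lira and T1D it was -1.0 ± 0.47 (adjusted p = 0.978).

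Among the basement membrane collagens, 3 of 7 tested genes were highest in T1D mouse 1, but the abundant type IV pair was not. *Col4a1*, with *Col4a2* the most widespread type IV pair, was counted at 218, 200 and 168 CPM in NGT, 197, 112 and 97.97 CPM in T1D and 205, 225 and 117 CPM in Lira mice. *Col4a2* was counted at 165, 143 and 113 CPM in NGT, 152, 80.3 and 68.6 CPM in T1D and 145, 164 and 90.4 CPM in Lira mice. T1D mice 2 and 3 had the lowest levels of both chains in the series, followed by Lira mouse 3, and T1D mouse 1 lay among the NGT mice. Both chains were lower in T1D in all 3 same-numbered pairs, by 0.14, 0.83 and 0.78 for *Col4a1* and by 0.11, 0.83 and 0.72 for *Col4a2* on the log2 scale. The log2 fold change between T1D and NGT was -0.53 ± 0.33 for *Col4a1* and -0.48 ± 0.34 for *Col4a2* (adjusted p = 0.977 for each). Without T1D mouse 1 these became -0.90 and -0.92, with unadjusted p of 0.0163 and 0.0133 and adjusted p of 1.00, and between Lira and T1D 0.80 and 0.84, with unadjusted p of 0.0270 and 0.0199 and adjusted p of 0.998 (quasi-likelihood test of edgeR, Benjamini-Hochberg adjustment).

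*Col15a1* and *Col18a1* encode the multiplexins, whose C-terminal fragments include endostatin. *Col15a1* was counted at 41.1, 27.9 and 29.7 CPM in NGT, 49.5, 20.8 and 14.3 CPM in T1D and 10.1, 43.1 and 17.4 CPM in Lira mice. *Col18a1* was counted at 18.5, 11 and 9.42 CPM in NGT, 53.1, 10.7 and 9.27 CPM in T1D and 6.85, 11 and 7.98 CPM in Lira mice. Unlike the type IV pair, *Col18a1* was 2.86 times as high in T1D mouse 1 as in any other library. Its log2 fold change between Lira and T1D was -1.50 ± 0.65, with an unadjusted p of 0.0477 and an adjusted p of 0.978 (quasi-likelihood test of edgeR, Benjamini-Hochberg adjustment), and -0.22 without T1D mouse 1. The remaining type IV chains were low, with a median FPKM of 0.18 for *Col4a3*, 0.19 for *Col4a4*, 0.33 for *Col4a5* and 0.02 for *Col4a6*, against 26.7 for *Col4a1*.

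Among the other collagens, type III and type VI carried most of the level. *Col3a1*, the chain of type III collagen of soft connective tissue and vessel walls, was counted at 323, 108 and 225 CPM in NGT, 1537, 152 and 121 CPM in T1D and 69.6, 173 and 161 CPM in Lira mice. *Col6a1*, a chain of the beaded filaments of type VI collagen around cells, was counted at 106, 58.9 and 64.4 CPM in NGT, 320, 67.1 and 61.6 CPM in T1D and 44.2, 79.9 and 54.9 CPM in Lira mice. Its partner *Col6a2* was counted at 92.3, 45.9 and 60.0 CPM in NGT, 297, 60.6 and 49.2 CPM in T1D and 32.3, 73.3 and 46.6 CPM in Lira mice. In each of these genes T1D mouse 1 was the highest and Lira mouse 1 the lowest library, and the other 7 libraries overlapped between groups. Between T1D and NGT the log2 fold changes were 1.47 ± 0.94 for *Col3a1*, 0.97 ± 0.62 for *Col6a1* and 1.04 ± 0.67 for *Col6a2* (adjusted p = 0.977 for each, quasi-likelihood test of edgeR, Benjamini-Hochberg adjustment), and without T1D mouse 1 they were -0.68, -0.25 and -0.27, where the mean of same-numbered pairs 2 and 3 was -0.20, 0.06 and 0.06. Between Lira and T1D they were -2.17 ± 0.96, -1.33 ± 0.62 and -1.42 ± 0.68 (adjusted p = 0.978), and -0.02, -0.11 and -0.11 without T1D mouse 1.

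A smaller set, singled out after its values were seen, was highest in T1D mouse 2. *Col28a1*, a collagen known from peripheral nerve, was counted at 2.16, 2.55 and 0.871 CPM in NGT, 2.28, 3.67 and 1.73 CPM in T1D and 1.57, 0.779 and 1.15 CPM in Lira mice. *Col9a1*, *Col19a1*, *Col23a1*, *Col7a1*, *Col20a1* and *Col4a4* also peaked there, so that 7 of 38 tested collagens did, against 7.71% of all tested genes. The 8 Schwann cell markers were all highest in T1D mouse 2 and summed to 1038 CPM there, against 54.8 to 285 CPM in the other libraries, and their part in these levels was not tested. *Col22a1*, found at muscle and tendon junctions, ranged from 8.74 CPM in T1D mouse 3 to 53.2 CPM in NGT mouse 1, and *Col20a1* was among the steadiest genes, from 8.05 to 16 CPM.

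Counted over all tested collagens, no gene passed the thresholds of an adjusted p under 0.05 and a fold change over 2 between T1D and NGT, as was the case for all genes (0.0%). An unadjusted p under 0.05 was reached by 1 of 38 collagens on the higher side, *Col27a1*, against 2.36% of all genes, and by 0 on the lower side, against 1.6%. Groups that did not overlap were found for 0 collagens in either direction, against 3.52% of all genes higher and 5.08% lower. DESeq2 and limma-voom each gave 2 collagens at an unadjusted p under 0.05, against 4.99% and 3.41% of all genes, and 0 past the adjusted threshold. With the replicate number as a block, which treats same-numbered mice as matched though nothing says so, 4 collagens reached an unadjusted p under 0.05 in edgeR. They were *Col27a1*, *Col23a1* and *Col2a1* on the higher side against 3.04% of all genes, and *Col4a1* on the lower side against 2.35%, with adjusted p of at least 0.864. In this fit *Col2a1* had a log2 fold change of 1.82 ± 0.50 (unadjusted p 0.00809, adjusted p 0.864, edgeR), and it was higher in T1D in all 3 same-numbered pairs. The count was 0 when NGT mouse 3 was left out (1.82% of all genes) and 2 when NGT mouse 1 (7.32%), T1D mouse 1 (3.0%) or T1D mouse 3 (5.0%) was. Without T1D mouse 1 the 2 genes were *Col4a1* and *Col4a2* on the lower side (1.39% of 13758 genes).

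By sign alone, 30 of 38 collagens had a fitted mean above that of NGT in T1D mice, against 52.1% of all genes. The classes differed in this description, with 4 of 5 bone, 6 of 6 cartilage and 18 of 20 other genes above 0 but 2 of 7 basement membrane genes. Median log2 fold changes were 1.22, 1.30, 0.55 and -0.22 for bone, cartilage, other and basement membrane genes, beside 0.02 over all genes tested. Without T1D mouse 1, 16 of 36 tested collagens were above 0, 0 of 5 bone, 2 of 4 cartilage, 13 of 20 other and 1 of 7 basement membrane genes, with a median of -0.26 over the collagens. The class medians were then -0.35 for bone, 0.05 for cartilage, 0.06 for other and -0.50 for basement membrane genes, so those of bone and other genes rested on T1D mouse 1 in this unpaired fit. The 4 cartilage genes still tested had a median of 0.83 over all 9 libraries, so part of the cartilage change came with the smaller number of genes. By same-numbered pairs without number 1, the mean log2 difference of the summed level was 0.31 for bone, 0.82 for cartilage, 0.03 for other and -0.75 for basement membrane genes, with pairs 2 and 3 opposite in sign in all classes but basement membrane.

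**Figure D4:**
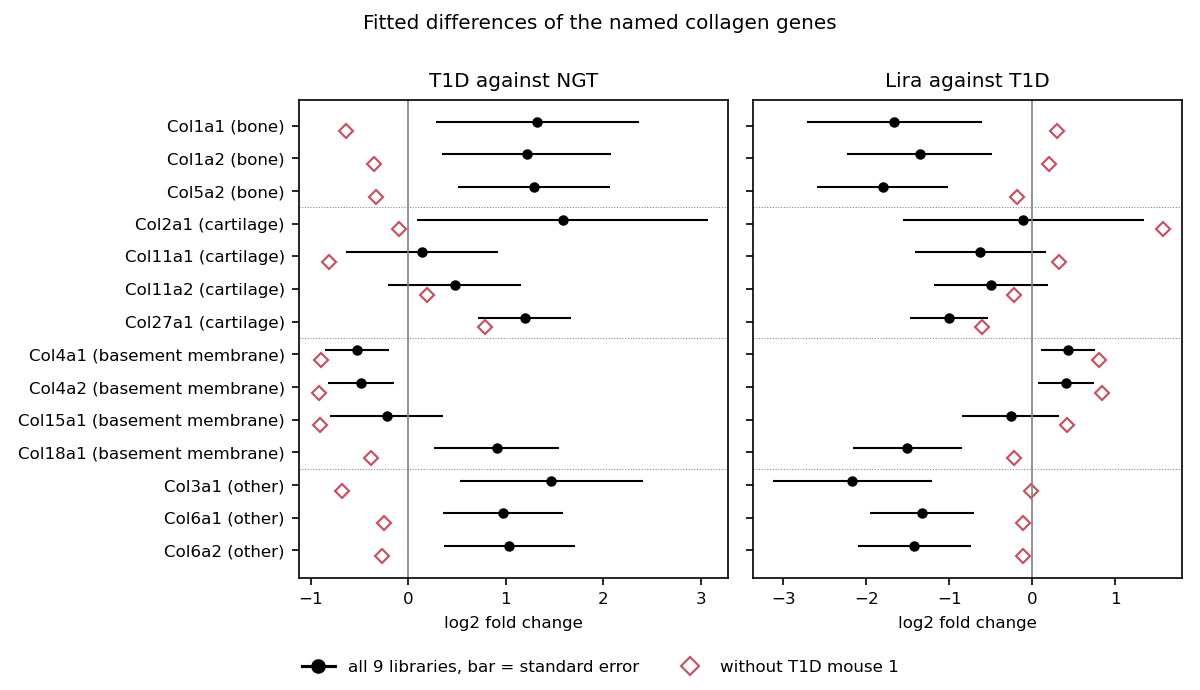
Log2 fold change (horizontal axis) of the 14 named collagen genes, fitted over all 9 libraries (filled circles with standard errors) and without T1D mouse 1 (open diamonds), for T1D against NGT on the left and Lira against T1D on the right. Leaving out T1D mouse 1 moves *Col1a1* from 1.32 to -0.64 on the left, and *Col4a1* and *Col4a2* stay on the same side of 0 in both panels.

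Between Lira and T1D mice, 1 of 38 collagens reached an unadjusted p under 0.05 on the lower side, *Col18a1*, against 1.78% of all genes, and 0 on the higher side, against 1.55%. Again 0 passed the adjusted threshold in edgeR's quasi-likelihood test, in DESeq2 (6 at an unadjusted p under 0.05, against 4.44% of all genes) and in limma-voom (0, against 2.62%). Every Lira mouse lay below every T1D mouse for 4 collagens, *Col8a1*, *Col23a1*, *Col27a1* and *Col28a1*, against 3.39% of all genes, and above for 0, against 3.74%. Of these, *Col8a1*, a short-chain collagen of vessel walls, was counted at 17.7, 10.7 and 13.7 CPM in T1D and 8.06, 9.03 and 9.07 CPM in Lira mice, with NGT mice on both sides of them at 18.4, 6.11 and 10.1 CPM. By sign, 6 of 38 collagens were above 0, against 55.3% of all genes, and 12 of 36 were without T1D mouse 1. The count at an unadjusted p under 0.05 was 3 without T1D mouse 1, *Col4a1* and *Col4a2* on the higher side (0.959% of all genes) and *Col7a1*, of the anchoring fibrils of skin, on the lower (1.4%). It was 7 of 36, all lower, without T1D mouse 2 (4.04% of all genes in either direction), 10 of 38, all lower, without T1D mouse 3 (5.1%), and 0 without Lira mouse 1, 2 or 3 (1.83%, 3.12% and 5.35%). Both comparisons share the T1D mice, so T1D mouse 1 entered both.

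Between Lira and NGT mice, 0 of 38 collagens reached an unadjusted p under 0.05 in edgeR's quasi-likelihood test, against 0.487% of all genes higher and 0.294% lower, and 0 did in DESeq2 and limma-voom, against 1.11% and 0.695% in either direction. Groups without overlap were found for 0 collagens, against 2.49% of all genes higher and 1.78% lower. A total of 8 of 38 were above 0, against 55.6% of all genes, with medians of -0.37 for bone, 0.60 for cartilage, -0.32 for basement membrane and -0.37 for other genes on the log2 scale, beside 0.04 over all genes. Without NGT mouse 2, *Col12a1* reached an unadjusted p under 0.05 (0.617% of all genes), and without Lira mouse 2 *Col15a1* did (3.2%), each on the lower side.

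Ratios of 2 genes within a library were compared because library scaling cancels in them. Of the pairs of chains of 1 collagen type, some kept steady proportions and others did not. The log2 count ratio of *Col4a1* to *Col4a2* lay between 0.37 and 0.57 over the 9 libraries (SD 0.07), and that of *Col6a1* to *Col6a2* between 0.10 and 0.45 (SD 0.13). The ratio of *Col1a1* to *Col1a2* was less even, from -0.08 in NGT mouse 2 to 0.77 in T1D mouse 1 (SD 0.29), as were *Col5a1* to *Col5a2* (SD 0.38) and *Col11a1* to *Col11a2* (SD 0.51). The widest of these were *Col4a5* to *Col4a6* (SD 1.06), *Col9a3* to *Col9a2* (SD 1.81) and *Col9a1* to *Col9a2* (SD 1.94), where the lowest count of either gene in a library was 2, 0 and 0. Corrected for length, the FPKM ratio of *Col1a1* to *Col1a2* was 1.11 at the median (0.832 to 1.5), while type I protein holds more alpha-1 than alpha-2 chains. For *Col4a1* to *Col4a2* the median FPKM ratio was 1.36 (1.26 to 1.45).

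Between collagen types, *Col3a1* to *Col1a1* had an SD of 0.87, with log2 count ratios of -1.16, 0.27 and -1.72 in NGT, -1.06, -1.13 and -1.45 in T1D and -2.57, -0.16 and -1.94 in Lira mice. T1D mouse 1 lay in the middle of the range of this ratio, and NGT mouse 2 and Lira mouse 2 had the most *Col3a1* for their *Col1a1*. *Serpinh1*, the collagen chaperone HSP47, stood to *Col1a1* at -2.80, -1.05 and -3.63 in NGT, -3.60, -3.08 and -3.23 in T1D and -4.16, -1.41 and -3.48 in Lira mice, with the same mice at the top. Of the 16 ratios, 1 did not overlap between T1D and NGT, *Col4a3* to *Col4a4*, at -0.42, 0.27 and 0.05 in NGT and -0.61, -0.58 and -0.80 in T1D mice, where the lower of the 2 genes had as few as 9 counts. Between Lira and T1D 1 did not overlap, *Col10a1* to *Col2a1*, where *Col10a1* was at 0 in several libraries, and 0 did between Lira and NGT. In exact permutation tests over the mice, two-sided, 3 against 3 allow no p under 0.1, and the smallest adjusted p over the 16 ratios was 0.90, 0.96 and 0.914 in the 3 comparisons.

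**Figure D5:**
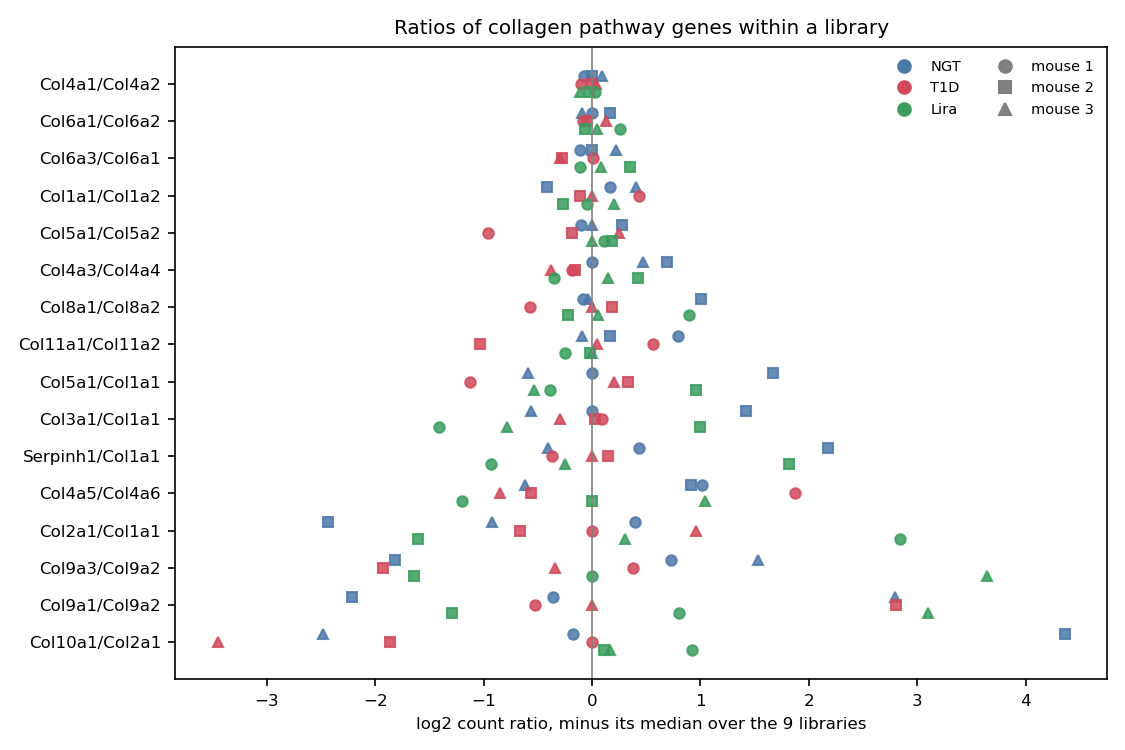
Log2 count ratio of 2 genes within each library, minus the ratio's median over the 9 libraries (horizontal axis), for 16 pairs ordered by their SD (rows). Points are libraries, coloured by group and shaped by mouse number, and the pairs *Col4a1*/*Col4a2* and *Col6a1*/*Col6a2* at the top have the narrowest spread.

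Genes that make, crosslink, sense and degrade collagen were read from lists of 58 genes, of which 56 were tested. Between T1D and NGT, 6 had an unadjusted p under 0.05 on the higher side and 0 on the lower, against 2.36% and 1.6% of all genes, and 0 passed the adjusted threshold (lowest adjusted p 0.977, quasi-likelihood test of edgeR, Benjamini-Hochberg adjustment). *Mmp14*, a membrane collagenase, was counted at 36.0, 16 and 23.7 CPM in NGT and 139, 37.6 and 41.9 CPM in T1D mice, so every T1D mouse was above every NGT mouse, with a log2 fold change of 1.53 ± 0.51. *Ctsk*, the collagen-degrading protease of osteoclasts, was counted at 30.4, 2.78 and 12 CPM in NGT and 117, 32.7 and 72.9 CPM in T1D mice, also without overlap (2.30 ± 0.96). Of all genes, 3.52% lay higher in T1D without overlap. The other 4 were *Bmp1*, which removes the C-propeptide of fibrillar collagens, *Lox*, which starts crosslinking, the inhibitory collagen receptor *Lair1*, and *Mmp13*, the interstitial collagenase of mouse. *Bmp1* had a log2 fold change of 0.80 ± 0.32, *Lox* of 1.2 ± 0.51 and *Lair1* of 3.12 ± 1.28. The values were smaller without T1D mouse 1, at 0.65 for *Mmp14*, 1.80 for *Ctsk*, 0.35 for *Bmp1*, 0.68 for *Lox* and 1.12 for *Lair1*. They were larger without NGT mouse 1, at 1.88, 3.34, 0.99, 1.77 and 4.32 in the same order. Markers of osteoclasts, of which *Ctsk* is 1, summed to 10.2 to 167 CPM in NGT, 97.2 to 377 CPM in T1D and 21.8 to 350 CPM in Lira mice, and their part was not tested.

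By role, 3 of 8 degradation, 1 of 7 propeptide removal, 1 of 5 crosslinking, 1 of 12 receptor, 0 of 19 modification and folding and 0 of 5 secretion genes were on the higher side at an unadjusted p under 0.05, against 2.36% of all genes. Without T1D mouse 1 the number was 0 in every role. *P4ha1* and *P4ha2*, the prolyl hydroxylase subunits that stabilise the helix, were counted at 33.5 to 69.6 and 12.5 to 38.2 CPM over the libraries. *Serpinh1* (23.0 to 265 CPM) and *Plod2*, a lysyl hydroxylase (6.07 to 36.9 CPM), were highest in T1D mouse 1. The count of 6 became 12 with the replicate number as a block, and the count over all genes rose as well, from 552 to 752 (5.39%). It became 10 if NGT mouse 1 (7.32% of all genes), T1D mouse 2 (5.19%) or T1D mouse 3 (5.0%) was left out, 1 if NGT mouse 2 (1.6%), 2 if NGT mouse 3 (1.82%) and 0 if T1D mouse 1 was (3.0%).

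Between Lira and T1D, 5 pathway genes had an unadjusted p under 0.05 on the lower side and 1 on the higher, against 1.78% and 1.55% of all genes (lowest adjusted p 0.978, quasi-likelihood test of edgeR, Benjamini-Hochberg adjustment). The lower ones were *Mmp14* (-1.43 ± 0.51 on the log2 scale), *Bmp1* (-0.91 ± 0.32), *P4ha3*, a minor prolyl hydroxylase subunit (-3.16 ± 1.18), *Fap*, a fibroblast protease (-1.29 ± 0.53), and *P3h3*, a prolyl 3-hydroxylase. These were nearer 0 without T1D mouse 1, with *Mmp14* at -0.55, *Bmp1* at -0.47, *P4ha3* at -1.40 and *Fap* at -0.50. The higher one was *Adgrg1*, an adhesion receptor that binds type III collagen, at 29.2, 36.5 and 46.3 CPM in T1D and 64.6, 58.5 and 68.4 CPM in Lira mice (0.77 ± 0.22, unadjusted p 0.00642). It did not overlap between these groups, against 3.74% of all genes on the higher side. *Adgrg1* was also the 1 pathway gene with an unadjusted p under 0.05 without T1D mouse 1. NGT mice had 57.1, 54.8 and 38.1 CPM of it. The count of 6 became 10 if T1D mouse 2 was left out (4.04% of all genes), 16 if T1D mouse 3 (5.1%), 1 if T1D mouse 1 (2.36%) or Lira mouse 1 (1.83%) and 4 if Lira mouse 2 was (3.12%). Between Lira and NGT, 0 pathway genes had an unadjusted p under 0.05, and 1 did without NGT mouse 1 (2.22% of all genes) and without Lira mouse 2 (3.2%).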

How the data were processed

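Total RNA of 9 tibias was enriched with oligo(dT), and clean reads were aligned to the mouse genome. The submitters' processing notes list mm9. The aligner, the counting tool and the strand setting are not given in the sources used here. The authors deposited expected counts per gene, of which 30.2% are not whole numbers, and FPKM values, which were checked on their ratio to counts and library totals. All sample columns were mapped by their labels (NGT = Control, T1D = Model, Lira = Drug).

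After rounding, genes reaching 10 counts in 3 or more of the 9 libraries (13960 of 18272) were fitted in R 4.3.3 with edgeR 4.0.16 (TMM, glmQLFit and glmQLFTest, 1 mean per group over all 9 libraries), and p-values were adjusted over all genes by Benjamini-Hochberg. The study's thresholds, a fold change over 2 and an adjusted p under 0.05, were kept, and its analysis of variance on unstated values was replaced by this count model. With its own analysis the study reported genes past these thresholds for T1D against NGT, *Ctsk* among them. It also reported higher *Ctsk* in T1D mice by RT-qPCR. Standard errors were derived from the F statistic. In simulated T1D against NGT data with 200 of 13960 genes changed, 109 were recovered at a 4-fold and 175 at a 16-fold change, with 5 and 16 false calls. Simulated counts varied independently between genes, so no library was shifted over many genes at once, as T1D mouse 1 was in the real data. These numbers therefore check the procedure and do not give the recovery to be had in the real libraries. Ratios within a library used counts + 0.5 and exact permutation tests. Alternatives were DESeq2 1.42.0, limma-voom (limma 3.58.1), library size in place of TMM, scaling without muscle genes, no low-count filter, fits without the uninvolved group, the replicate block, deposited FPKM for ratios and class sums, no fold threshold, and leaving out each mouse. The block without the uninvolved group, the robust option of edgeR, and leaving out T1D mouse 1 and Lira mouse 3 together were chosen after seeing the data. Nothing says that same-numbered mice are matched. For the pairing check, deviations from the group mean of log2 CPM correlated across genes at r = 0.583, 0.647 and 0.283 between same-numbered NGT and T1D mice, each above 0.1. Over the collagen genes alone r was 0.743, 0.523 and -0.062. Lira mouse 3 and NGT mouse 1, of different numbers, reached 0.780 over all genes, so such an r cannot show that mice were matched. Pair differences and blocked fits therefore describe an assumed pairing. Printed values still come from the fit without the block, and blocked values stand beside them where they move a count by over 1.5 times. For Lira with T1D (-0.243, 0.615 and 0.271) and Lira with NGT (-0.173, 0.727 and 0.0125) not every same-numbered r was above 0.1.

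The members and lists were chosen with earlier results of these data known. Named collagens were the 3 with the highest mean FPKM in each class, every collagen with an unadjusted p under 0.05, and the members of the 16 ratios. Named pathway genes were the 5 with the lowest p under 0.05 in a comparison, and 6 chosen by role. Collagen genes named beyond these were chosen after their values were seen, as were *Mmp13* and *P3h3*.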

Additional observations from a re-analysis of the deposited data

How the results depend on the processing

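The number of collagens past the thresholds was 0 in all 3 comparisons and stayed 0 under every alternative run. Of the 608 alternative values of the 38 named log2 fold changes, 578 kept their direction, 0 passed the thresholds (lowest adjusted p 0.230 over all of them), and 30 reversed, 25 of these in fits without T1D mouse 1. All reversals came from leaving out mice. Over these fits the T1D against NGT log2 fold change ranged from -0.67 to 1.78 for *Col1a1*, -0.38 to 1.64 for *Col1a2*, -0.13 to 2.76 for *Col2a1*, -0.71 to 1.95 for *Col3a1*, -0.36 to 1.75 for *Col5a2*, -0.28 to 1.35 for *Col6a1*, -0.30 to 1.44 for *Col6a2*, -0.85 to 0.72 for *Col11a1*, -0.94 to 0.10 for *Col15a1* and -0.41 to 1.30 for *Col18a1*. The Lira against T1D value ranged from -2.13 to 0.30 for *Col1a1*, -1.78 to 0.21 for *Col1a2*, -1.71 to 1.83 for *Col2a1*, -0.98 to 0.33 for *Col11a1* and -1.03 to 0.60 for *Col15a1*.

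Counts of collagens at an unadjusted p under 0.05 moved by more than 1.5 times in many fits. For T1D against NGT, where it was 1, it was 2 with DESeq2, limma-voom or no low-count filter, 0 with library size in place of TMM or only the 2 groups compared, 4 with the replicate block, 6 of 36 with the block and only the 2 groups compared, and 0 to 2 when mice were left out. The share of all genes, 3.95% in the reported fit, was 4.99%, 3.41%, 3.76%, 3.4%, 4.02%, 5.39% and 14.2% in these 7 fits in the order given. For Lira against T1D, where it was 1, it was 6 with DESeq2, 4 with no low-count filter, 3 with only the 2 groups compared, 2 with scaling without muscle genes, and 0 with library size, limma-voom, edgeR's robust option or the block with only the 2 groups compared, and 0 to 10 when mice were left out. Here the share of all genes was 3.33% in the reported fit, 4.44%, 2.97%, 2.14% and 3.32% in the first 4 and 1.89% to 3.26% in those with 0. For Lira against NGT, where it was 0, it was 1 with the replicate block, in all 9 libraries or in the 2 groups compared, and 0 to 1 when mice were left out (1.15% and 0.714% of all genes with the block). The number of pathway genes for T1D against NGT, 6 of 56 against 3.95% of all genes, became 2 with library size (3.4% of all genes) and 3 with limma-voom (3.41%) or only the 2 groups compared (4.02%). It was 12 with the block (5.39%), 19 with the block and only these groups, where 14.2% of all genes passed, and 0 to 10 without single mice (1.6% to 7.32%). For Lira against T1D, 6 (3.33% of all genes) became 12 with DESeq2 (4.44%), 10 with the block (3.63%), 3 with limma-voom (2.62%) and 1 to 16 without single mice (1.83% to 5.35%). For Lira against NGT, 0 (0.781% of all genes) became 1 with library size (0.723%) or with either block fit (1.15% and 0.714%) and 0 to 1 without single mice (0.423% to 3.2%). The cause of these changes was not tested.

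The number of the 16 ratios without overlap was 1 to 2 for T1D against NGT, 1 to 3 for Lira against T1D and 0 to 2 for Lira against NGT when mice were left out, where fewer mice overlap less often by construction. With deposited FPKM it was 0 for Lira against T1D, since ratios with a gene at 0 have no value there. In the pairing by replicate number, 3 ratios of T1D to NGT and 4 of Lira to NGT had the same direction in all 3 pairs. The ratio of mean summed levels between T1D and NGT moved from 2.37 to 0.711 for bone, from 1.64 to 1.03 for cartilage and from 2.01 to 0.802 for other collagens without T1D mouse 1, and between Lira and T1D from 0.348 to 1.16, from 0.722 to 1.15 and from 0.361 to 0.905. At this depth *Col4a6*, *Col6a4*, *Col6a5*, *Col9a3*, *Col10a1* and *Col17a1* had too few counts to test.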
